A study of Mus musculus with 48 samples.

Results

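The media-only control of this study was the resting state of a mouse co-culture, and it was measured in 7 of the 48 samples of the series, those whose titles begin with Media. Each well held naive Balb/c splenocytes as antigen-presenting cells (APCs), and Th2-455 cells, each added as 0.5 mL of suspension, with 5 splenocytes for 1 T cell. Th2-455 is a CD4+ line, not a clone, from lymph nodes of female Balb/c mice (8 to 12 weeks old) immunized with Copaxone (glatiramer acetate), polarized by 13 rounds of restimulation with the drug and kept in IL-2. Removal of T cells and mitomycin C are stated for the splenocytes of those rounds and not for the splenocytes of the wells. The wells received 10 µL of medium, described in the labels as medium with mannitol, and no glatiramoid, and were lysed after 24 h. The other 41 samples received Copaxone (17), Glatopa (16) or the nonequivalent glatiramoid ACN (8), and none of them enters any value here, except through the common normalization. Nothing in the labels says that the 7 wells came from separate animals or cultures, so a spread between wells may be technical, and p-values measure only that spread.

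T helper 2 (Th2) cells are CD4+ T cells that respond to antigen with cytokines such as IL-4, IL-5 and IL-13, under the transcription factor GATA3 and with STAT6 carrying the IL-4 signal. Without antigen on MHC class II molecules the T cell receptor is not engaged, and a primed cell holds its cytokine genes open but makes little of their mRNA. Naive spleen brings B cells above all, with T cells, monocytes, macrophages, neutrophils and dendritic cells, so the RNA of such a well is a mixture in which the added line is the minority by number.

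Intensities are given as quantile-normalized log2 values. With 1 colour, no detection call in the table and 39430 probes of unlike sequence, the only yardstick for absence was a set of genes that these cells should not use. The 1477 probes for olfactory and vomeronasal receptors had a median of 4.83, a 95th percentile of 5.05 and a 99th percentile of 5.87, and the last is called the receptor limit below. Above it lay 9846 probes (25.0%), of which 2017 had no gene symbol, and 6694 of 22485 named genes, or 29.8%, counting the brightest probe of each gene. A fixed limit of 6 left 9289 probes. The limit is a description and not a test, since 15 receptor probes lay above it by construction, the brightest at 7.73.

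Brightness is not abundance, and the array itself shows by how much the probe matters. Among 8406 pairs of probes for 1 gene, 2107 pairs lay on opposite sides of the receptor limit. In the 1368 pairs with both probes above it, the 2 means differed by a median of 1.04 log2 units, with an upper quartile of 1.88 and a largest difference of 7.82. The levels below are therefore given as the brightness of a named gene's brightest probe, in mean ± SD over the 7 wells, and an order between genes is an order of spots.

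**Figure D1:**
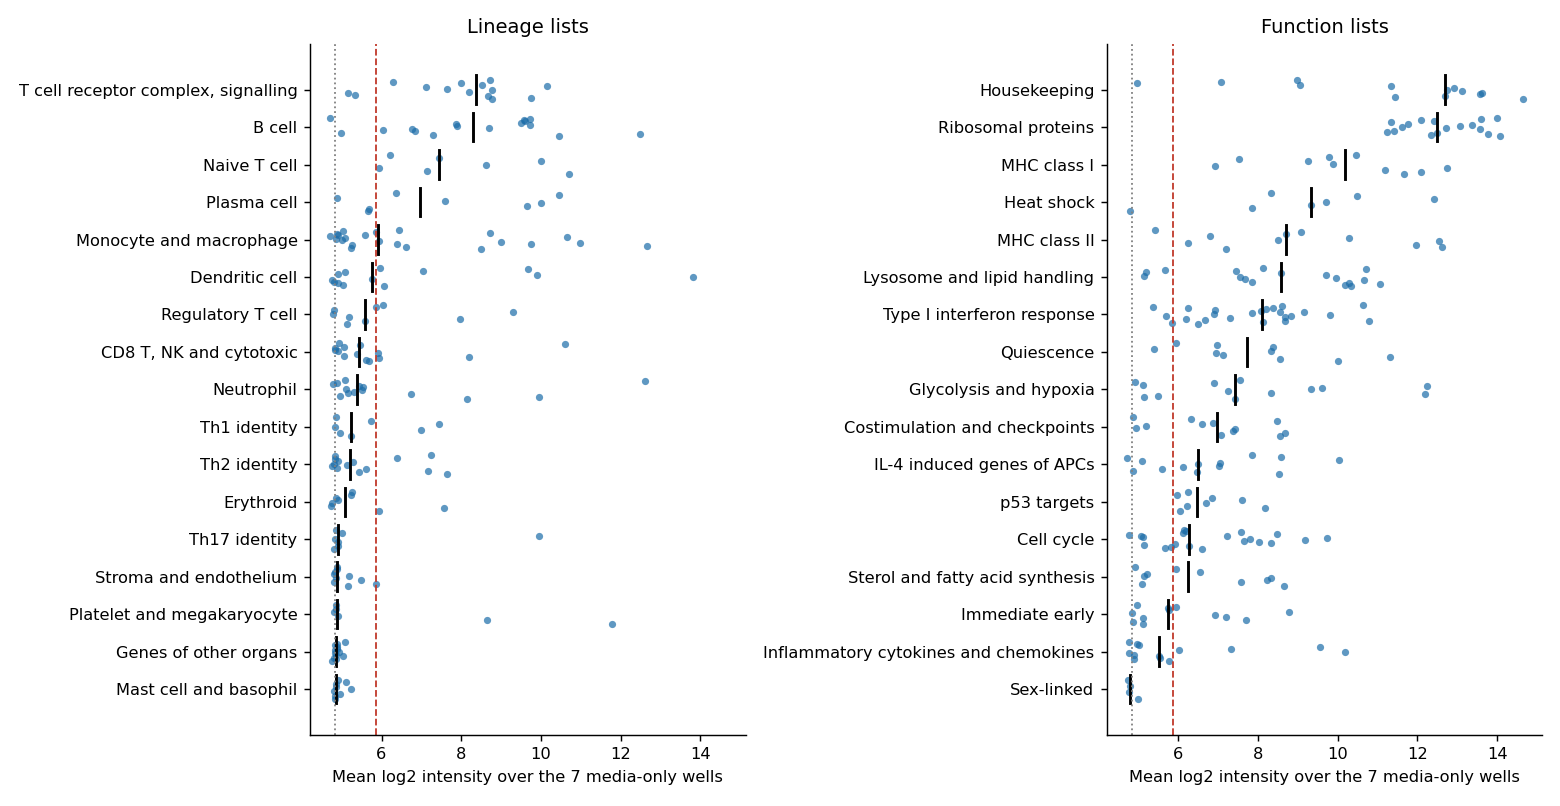
Mean log2 intensity over the 7 media-only wells (x axis) of each measured gene (points) in 17 lineage and 17 function lists (rows), ordered by list median (black bar), with the receptor limit of 5.87 (red dashed line) and the receptor median of 4.83 (grey dotted line). All 17 ribosomal protein genes lie above the limit, and all mast cell and basophil genes lie below it.

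Lineage genes of B cells and of T cells were the ones most often above the limit. Of the measured members, 14 of 16 B cell genes, 12 of 14 genes of the T cell receptor complex and its signalling, and 7 of 7 naive T cell genes lay above the receptor limit, against 29.8% of all named genes. The lists were chosen with earlier results of these data known, so such counts are a description and not a test. The list medians were 8.29 for B cells and 8.36 for the T cell receptor, at percentiles 91.9 and 92.2 of all probes. At the other end, 0 of 9 mast cell and basophil genes, 0 of 10 stromal and endothelial genes and 0 of 13 genes of other organs passed it. The labels name the cell type of these samples CD4+ T cell, and the B cell genes in every well do not belong to such a cell. In a bulk lysate, fewer cells of a type and less RNA per cell cannot be told apart.

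Among T cell genes the brightest were Thy1, a surface protein of all mouse T cells, at 10.16 ± 0.10, and Cd3d, a signalling chain of the receptor, at 9.75 ± 0.14 (SD, n = 7 here and throughout). Cd3e, another CD3 chain, read 8.48, 8.59, 9.04, 9.05, 9.29, 8.03 and 8.91 in wells 1 to 7. It was lowest in well 6 and highest in well 5. Cd3g read 8.68, 7.59, 8.85, 8.58, 9.11, 9.39 and 8.43 in the same wells, so that the well lowest for Cd3e was the highest for Cd3g. The kinase gene Zap70, which carries the signal inward, had 8.53 ± 0.26, and the adaptor Lat had 7.99 ± 0.41 with its lowest value, 7.23, in well 5. The probes for Cd4 itself, the co-receptor that defines the line, read 5.07 to 5.29 in all wells and were below the limit, as were those for Cd247 at 5.34 ± 0.20.

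Of 14 measured Th2 genes 4 lay above the limit, a share near the 29.8% of all named genes. They were Gata3 at 7.64 ± 0.26, Stat6 at 7.25 ± 0.17, the eosinophil growth factor gene Il5 at 7.17 ± 0.11 and the transcription factor gene Maf at 6.39 ± 0.13. When all probes of a gene were averaged, 2 of 14 were left, since the other probes for Stat6 and Maf averaged 5.23 or less. Il5 was the one cytokine of the list above the limit, with 7.17, 7.37, 7.03, 7.07, 7.15, 7.17 and 7.21 in wells 1 to 7. These values span 0.34 log2 units and show no well apart from the rest. Il4 read between 5.29 and 5.63 and Il13 5.61 ± 0.16, both below the limit and above the 95th percentile of the receptor probes, while Il3 had 5.13 ± 0.30. Il10, averaged over 10 spots, read 4.82 to 4.97, at the brightness of the receptor probes. The IL-4 receptor chain gene Il4ra gave 4.81 ± 0.21 and its other probe 4.78 ± 0.21.

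Counts for the other helper programs were small, and those of Th1 and regulatory T cells also lay near the 29.8% of all named genes. For Th1 cells 2 of 7 passed, Stat4 at 7.44 ± 0.09 and the chemokine receptor gene Cxcr3 at 6.98 ± 0.16, with Ifng, their hallmark cytokine, at 4.97 ± 0.30. For Th17 cells 1 of 7 passed, Ccr6 at 9.95 ± 0.23, a receptor that B cells also carry. For regulatory T cells there were 3 of 9, led by Tnfrsf18 (GITR) at 9.31 ± 0.19 and the IL-2 receptor alpha chain gene Il2ra at 7.97 ± 0.18, both also made by activated helper cells, while Foxp3, the defining factor, read 5.13 ± 0.21.

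Naive and cytotoxic T cell genes were measured in the same lysates. All 7 measured naive genes were above the limit in the mean, although Il7r, with a mean of 5.95, had a median of 5.60 below it. Among the 7 were Ccr7, the lymph node homing receptor, at 10.70 ± 0.79, the quiescence factor gene Klf2 at 10.00 ± 0.51 and S1pr1, which lets T cells leave lymphoid organs, at 8.62 ± 0.12. The cell of origin of these RNAs cannot be told apart. Ccr7 read 8.92 in well 1 and 10.84 to 11.14 in the other wells, and Klf2 read 8.94 in well 2 and 9.91 to 10.49 in the others. Neither low well was shared between these 2 genes. Of 14 cytotoxic genes 4 passed, against 29.8% of all named genes, among them the chemokine gene Ccl5 at 10.62 ± 0.07 and granzyme B (Gzmb) at 8.19 ± 0.19, whereas Cd8a, the co-receptor of cytotoxic T cells, had 5.68 ± 0.13 over 10 spots. Cd8a read 5.42 in well 6 and 5.66 to 5.79 in the others.

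The B cell genes were led by Cd79b, a signalling chain of the B cell receptor, at 12.48 ± 0.26, and Ms4a1 (CD20) at 10.44 ± 0.19. The partner chain of Cd79b, Cd79a, read 7.30 ± 0.30. The probes for Ighm and Pax5, which naive B cells make, gave 4.72 ± 0.15 and 5.00 ± 0.15. A value below the limit is therefore not read here as an absent transcript. Of 8 plasma cell genes 5 passed, against 29.8% of all named genes. They included the joining chain gene Jchain at 10.45 ± 0.27, Mzb1 at 10.01 ± 0.18 and the secretory factor gene Xbp1 at 9.65 ± 0.11.

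Myeloid, platelet and erythroid genes are set against the same 29.8% of all named genes, and the neutrophil, platelet and erythroid counts lay near it. Of 22 monocyte and macrophage genes 11 passed, with the integrin gene Itgam (CD11b) at 12.65 ± 0.51, the lysosomal protease gene Ctss at 10.99 ± 0.21, Apoe at 10.65 ± 0.12 and the growth factor receptor gene Csf1r at 8.50 ± 0.19. Other probes for Itgam read 5.29 ± 0.47 and 4.83 ± 0.06. Cd14, the endotoxin co-receptor, read 5.25 ± 0.25 and lay below the limit. Of 14 neutrophil genes 4 passed, among them Csf3r at 12.62 ± 0.31, S100a9 at 9.94 ± 0.28 and S100a8 at 8.15 ± 0.18. Of 13 dendritic cell genes 6 passed, with Siglech, a receptor of plasmacytoid dendritic cells, at 13.81 ± 0.14 on 1 probe and 6.00 ± 0.17 on another. Of 6 platelet genes 2 passed, with the chemokine gene Pf4 at 11.78 ± 0.10, and of 8 erythroid genes 2, with the haemoglobin gene Hba-a1 at 7.56 ± 0.39.

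Among the function lists, the highest medians were those of housekeeping genes (12.70), ribosomal proteins, MHC class I, heat shock (9.32) and MHC class II. Counts in these lists are set against the 29.8% of all named genes. All 17 measured ribosomal protein genes passed, with a list median of 12.49, as did 12 of 13 housekeeping genes, with Actb at 14.64 ± 0.31 and Tbp below the limit at 4.95 ± 0.07. All 10 MHC class I genes passed (median 10.17), with H2-T23 at 12.75 ± 0.39 and B2m, the light chain, at 11.66 ± 0.37. Of 11 MHC class II genes 10 passed (median 8.70), led by H2-Ab1 at 12.63 ± 0.25 and the invariant chain gene Cd74 at 12.55 ± 0.36, and Ciita, the transactivator of these genes, was the one below the limit at 5.41 ± 0.32. Of 12 genes of costimulation and checkpoints 9 passed, with Icosl at 8.67 ± 0.15 and Cd80 at 8.55 ± 0.31.

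Interferon-response genes were bright in medium alone. Of 24 measured members 21 passed the limit (median 8.10), with the ubiquitin-like Isg15 at 10.77 ± 0.27, Rtp4 at 10.63 ± 0.22 and the oligoadenylate synthetase-like Oasl1 at 9.80 ± 0.33. Inflammatory cytokines and chemokines passed in 4 of 13 cases, near the 29.8% of all named genes, led by the monocyte attractants Ccl2 at 10.17 ± 0.22 and Ccl7 at 9.55 ± 0.32, while Il6 and Tnf read 5.53 ± 0.27 and 5.52 ± 0.10. Of 13 genes that IL-4 induces in APCs, 9 passed, with the lectin gene Mgl2 at 10.04 ± 0.19, the cytokine signalling inhibitor gene Socs1 at 8.57 ± 0.38 and the arginase gene Arg1 at 8.51 ± 0.47. Wells of either cell type alone were not analysed here, so the cell of origin of these RNAs cannot be told apart.

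Genes of proliferation and of rest were both above the limit, and the counts here are set against the 29.8% of all named genes. Of 21 cell cycle genes 15 passed, with the replication clamp gene Pcna at 9.73 ± 0.32, the helicase gene Mcm6 at 9.19 ± 0.27 and Mki67 at 6.59 ± 0.28, and of 10 quiescence genes 9 passed, with Btg1 at 11.31 ± 0.25. Of 12 immediate early genes 5 passed (41.7%), the count nearest to that share. Among these genes Nr4a1, which follows T cell receptor signals, read 8.77 ± 0.17 and Fos 5.10 ± 0.08. All 8 p53 targets passed, of 17 lysosomal and lipid-handling genes 14 did, of 10 genes of sterol and fatty acid synthesis 6, of 7 heat shock genes 6, and of 13 genes of glycolysis 9 did, with Ldha at 12.25 ± 0.24. The 4 sex-linked genes measured were at the brightness of the receptor probes in the mean, including Xist, the RNA that coats the inactive X of female cells, at 4.98 ± 0.38 and 4.95 ± 0.11 on its 2 probes. The mice were female by the study's account. The first Xist probe read 5.81 in well 6 and 4.62 to 5.03 in the others.

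Of 25 genes the study discussed, 15 were above the limit at rest, against 29.8% of all named genes. Besides those given above they included the lymphotoxin gene Ltb at 11.13 ± 0.37, S100a10 at 9.39 ± 0.12, the IL-2 receptor beta chain gene Il2rb at 6.55 ± 0.36, the chemokine receptor gene Ccr2 at 6.45 ± 0.18, Tlr2 at 6.35 ± 0.10 and Il12rb1 at 6.18 ± 0.20. The chemokine gene Cxcl10, induced by interferons, had 6.91 ± 0.34. The matrix protease gene Mmp14 was below the limit at 4.77 ± 0.11.

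The brightest spots of all were not those of spleen or T cell genes. In each well the highest value of 15.44 belonged to a probe for Slc10a1, a bile acid transporter of liver, for Ttc38 or for Elk1, and these averaged 15.36 ± 0.10, 15.25 ± 0.15 and 15.24 ± 0.12, next to Kctd14 at 15.27 ± 0.06. Every other probe for these 4 genes read 5.67 or less in the mean. Among the 30 brightest genes 10 were ribosomal by symbol, 24 had further probes, and in 8 of those 24 all further probes were below the limit. The second probe for Actb, also in this ranking, read 8.20 ± 0.33.

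The second question was how far the 7 wells differed. Between wells the correlation over probes above the limit was 0.941 to 0.970, and no 2 wells were identical over all spots. Array medians lay between 4.98 and 5.02, but the quantile normalization makes them alike, so they do not show how far the wells differed. The median SD of a probe above the limit was 0.235 log2 units, which is a 1.18-fold difference, with 5th and 95th percentiles of 0.107 and 0.666. It hardly depended on brightness, at 0.239 below a mean of 8 and 0.228 above it. An SD of 0.5 or more was seen in 890 probes (9.04%) and of 1 or more in 186. At the quiet end Cnot6l read 9.55 to 9.60 in all wells (SD 0.0175), Add1 10.40 to 10.50 and the survival gene Bcl2l1 8.15 to 8.26.

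**Figure D2:**
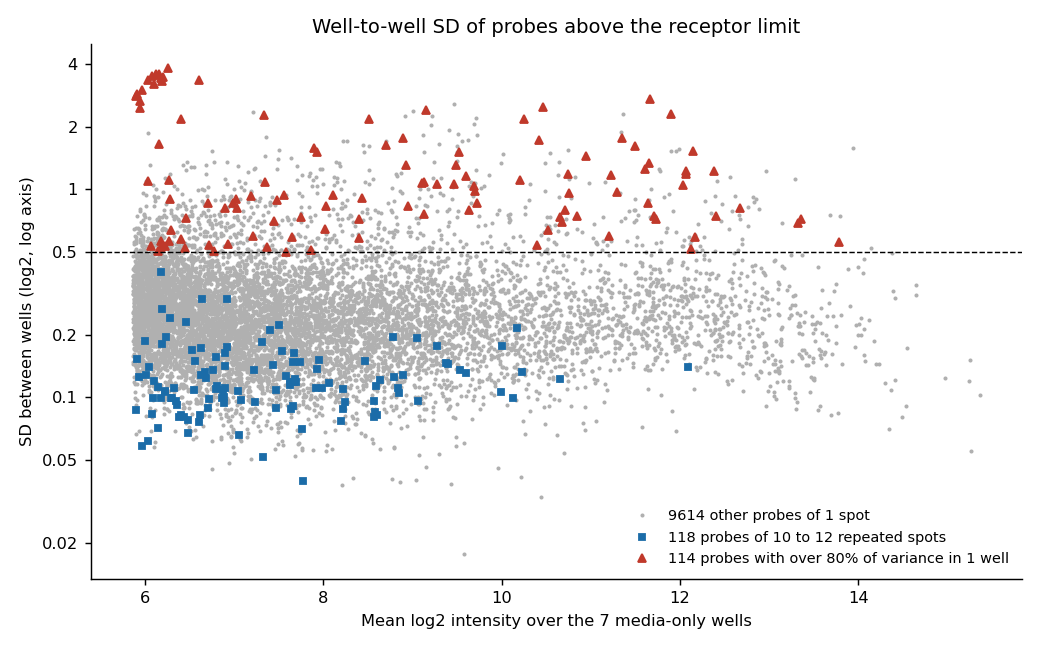
SD over the 7 media-only wells (y axis, log scale) against mean log2 intensity (x axis) of the 9846 probes above the receptor limit, with probes of 10 to 12 repeated spots in blue and probes with an SD of 0.5 or more and over 80% of their sum of squares in 1 well as red triangles. None of the 118 repeated-spot probes reaches the dashed line at 0.5, where 890 single-spot probes lie above.

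Well 6 stood apart. Its correlation with the other wells averaged 0.949, against 0.955 to 0.964 for the others, and it scored 40.1 on the first principal component, which held 27.2% of the variance, against -14.1 to 9.23 in the other wells. In well 6, 857 probes were over 0.5 above and 1347 over 0.5 below the median of the other wells, against 134 to 404 above and 425 to 775 below elsewhere. It held the lowest value of 2735 and the highest of 2096 of the 9846 probes. Without well 6 the median SD was 0.204 and 813 probes had an SD of 0.5 or more. RNA of acceptable integrity alone was carried forward according to the labels, but integrity values, slides and plate positions by well are not given in the sources used here, so their part in this was not tested.

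Gene lists differed in where they stood in well 6. Relative to the median of the other wells, 44.7% of all probes above the limit were higher there, and 5 of 17 ribosomal protein genes, 3 of 12 T cell receptor genes, 1 of 6 heat shock genes and 1 of 6 dendritic cell genes. The median differences of these 4 lists were -0.32, -0.26, -0.38 and -0.72. They were not the only lists that were lower there. Among others, 2 of 9 glycolysis genes were higher (-0.31), 2 of 10 MHC class I genes (-0.28) and 2 of 9 costimulation genes (-0.24). So were 4 of 12 housekeeping genes (-0.19) and 4 of 10 MHC class II genes (-0.19). Some lists showed little or no shift, with 7 of 14 B cell genes higher (-0.02) and 6 of 11 monocyte and macrophage genes (0.02). The same held for 3 of 4 Th2 genes (0.07), 2 of 4 neutrophil genes (0.09) and 3 of 6 genes of sterol and fatty acid synthesis (0.00389). The constitutive chaperone gene Hspa8 read 10.73 in well 6 and 12.55 to 12.87 elsewhere, and its other 2 probes were also lowest there, at 10.72 and 8.69. The glycolytic enzyme gene Gapdh was lowest in well 6 on 5 of its 7 probes, with 10.79 on the brightest, against 11.33 to 11.81 in the other wells, and highest there on the dimmest, at 8.20. Irf8, a factor of dendritic cells and B cells, read 9.05 there and 9.41 to 9.96 elsewhere, and the antiviral tetherin gene Bst2 9.20 against 9.75 to 10.25. Thy1, in contrast, had its highest value, 10.28, in well 6.

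Interferon-response genes were highest in wells 1 and 7. Of the 21 genes above the limit, 18 were higher in well 1 than the median of the other wells, where 56.1% of all probes were, and 19 were higher in well 7, where 45.9% of all probes were. Their median differences were 0.39 in well 1 and 0.31 in well 7, against -0.18 to 0.04 in wells 2 to 6. The highest of the 7 values fell in well 1 for 12 genes and in well 7 for 5, and the lowest fell in neither for any. Of all 9846 probes above the limit, 1595 were highest in well 1 and 836 in well 7, and 1134 and 1234 were lowest there. The antiviral GTPase gene Mx2 read 8.00 and 7.73 in wells 1 and 7 and 6.49 to 7.42 in the others, Ifit3 read 8.53 and 8.39 there and 7.78 to 8.16 in the others, and Cxcl10 read 7.27 and 7.37 there and 6.48 to 7.06 in the others. In these 3 genes the values of wells 1 and 7 did not overlap those of the other wells. How many of all probes were separated in this way was not counted. Isg15 was highest in well 1 only, at 11.26, with 10.70 in well 7 and 10.44 to 10.91 in the others. Ifit1 and Oas1a did not share the pattern, reading 6.13 and 8.33 in well 1 and 6.98 and 9.15 in well 7, with their lowest values, 5.22 and 7.74, in well 5 and their highest, 7.25 and 9.21, in well 6. No test was made, since wells 1 and 7 were chosen on these values.

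The bases before the start of these genes are shown as a description of the list, and their relation to the pattern over wells was not tested. In the 250 bases before the start, the letters GAAA, any 2 bases and GAAA again (or TTTC, any 2 bases and TTTC, the same on the other strand), the core of the interferon-stimulated response element, were found for 7 of the 15 members with a RefSeq promoter (GRCm38.p6), against 3.46% of 27025 gene symbols in the table, where a gene counts once for a match in any of its promoters. Isg15 (chr4:156200819-156201068, minus strand) holds 3 matches that overlap each other, the first starting 78 bases before the start. Ifit3 (chr19:34583279-34583528, plus strand) holds 2 that do not overlap, starting 156 and 122 bases before it. Ifit1 and Oas1a, which did not share the pattern over wells given above, also hold 2 matches each. Matches are in capitals, and the reference strain is not Balb/c.
Isg15: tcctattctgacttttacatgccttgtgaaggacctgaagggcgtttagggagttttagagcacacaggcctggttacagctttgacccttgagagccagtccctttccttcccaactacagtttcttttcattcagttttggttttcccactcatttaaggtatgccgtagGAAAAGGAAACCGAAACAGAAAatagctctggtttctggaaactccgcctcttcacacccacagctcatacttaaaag
Ifit3: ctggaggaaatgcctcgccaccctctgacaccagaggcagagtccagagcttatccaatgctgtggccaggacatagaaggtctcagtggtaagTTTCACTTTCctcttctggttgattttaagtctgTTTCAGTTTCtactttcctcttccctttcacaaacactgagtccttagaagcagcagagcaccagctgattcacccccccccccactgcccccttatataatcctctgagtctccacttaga
A match is a description of letters and not of binding, and no match in the other 8 says only that these letters are not in that window.

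**Figure D3:**
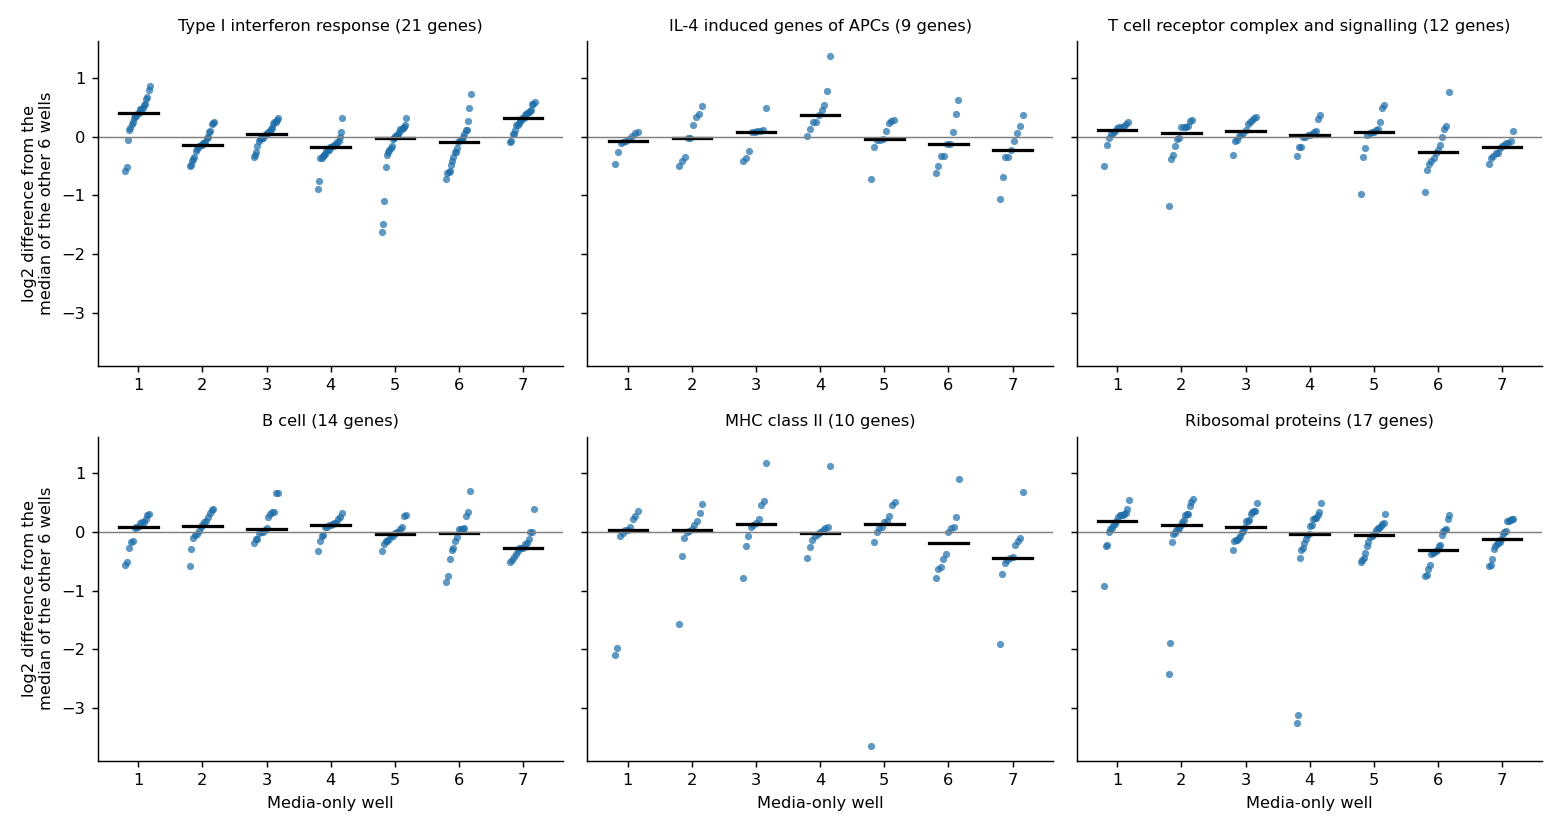
Difference of each gene from the median of the other 6 wells (y axis, log2) in each media-only well (x axis) for the members above the receptor limit of 6 lists (points, with the list median as a black bar). The interferon list has medians of 0.39 and 0.31 in wells 1 and 7, and the MHC class II and B cell lists have their lowest medians, -0.44 and -0.28, in well 7.

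In well 7 the genes of antigen presentation and of several cell types were lower. Of 10 MHC class II genes 9 were lower there than the median of the other wells (median difference -0.44), of 14 B cell genes 13 (-0.28), of 12 T cell receptor genes 11 (-0.18), and of 11 monocyte and macrophage genes 9 (-0.21), where 45.9% of all probes were higher. Of 10 MHC class I genes 9 were lower (-0.19), and of 9 genes that IL-4 induces 6 (-0.22). Whether these shifts share a source was not tested. Cd79b read 12.11 in well 7 and 12.13 to 12.74 in the others, and H2-Ob, which tunes peptide loading, read 8.53 there and 8.46 to 9.45 in the others. The B cell list had its lowest value in well 7 for 8 of 14 genes and the class II list for 2 of 10, against 1234 of all 9846 probes above the limit. In well 1, MHC class II genes had a median difference of 0.03.

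The 2 most variable class II genes did not share a pattern. H2-Eb1, the E beta chain, read 10.81, 11.33, 13.25, 13.21, 9.26, 12.97 and 12.84 in wells 1 to 7, with wells 1, 2 and 5 low. H2-Aa, the A alpha chain, read 5.76, 7.93, 7.97, 7.56, 7.92, 7.36 and 5.82, with wells 1 and 7 low. H2-Ab1, the partner of H2-Aa in 1 heterodimer, read 12.58 to 12.83 outside well 6, where it had 12.09. The Y box of class II promoters, searched as CTGATTGG or its reverse complement CCAATCAG, was found before the start of 4 of the 8 members with a RefSeq promoter, against 4.43% of all symbols. It stands 62 bases before the start of H2-Eb1 (chr17:34305617-34305866, plus strand) and 51 before that of H2-Aa (chr17:34287824-34288073, minus strand), in capitals here. Its relation to the values over wells was not tested.
H2-Eb1: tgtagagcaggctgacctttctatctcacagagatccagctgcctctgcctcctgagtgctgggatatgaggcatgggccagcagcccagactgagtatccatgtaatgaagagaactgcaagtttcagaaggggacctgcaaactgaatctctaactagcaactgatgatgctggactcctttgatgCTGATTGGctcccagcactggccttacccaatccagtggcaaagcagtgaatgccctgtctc
H2-Aa: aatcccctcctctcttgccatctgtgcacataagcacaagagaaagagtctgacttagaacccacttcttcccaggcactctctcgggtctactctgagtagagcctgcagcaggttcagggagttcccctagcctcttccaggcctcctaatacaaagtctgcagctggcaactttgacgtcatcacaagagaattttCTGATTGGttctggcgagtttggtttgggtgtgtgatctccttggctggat

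Genes that IL-4 induces in APCs were highest in well 4. All 9 members above the limit were higher there than the median of the other wells (8 of 9 after array median centring), where 52% of all probes were, and 6 of 9 had their highest value there, with a median difference of 0.37. The macrophage lectin gene Clec10a read 8.16 in well 4 and 6.43 to 7.42 in the others, Cd209d 7.20 against 5.94 to 6.70, Socs1 9.02 against 8.00 to 8.87 and Mgl2 10.31 against 9.69 to 10.14. In these 4 genes well 4 did not overlap the others, which for 1 well means only that it was the highest. Well 4 was the highest for 1352 of all 9846 probes above the limit. Arg1 read 8.92 in well 4 and was higher in well 3, at 8.96, with its lowest value, 7.69, in well 7. The monocyte and macrophage list had a median difference of 0.19 in well 4. Other lists were higher there too, among them inflammatory cytokines and chemokines (0.27), plasma cell (0.22), platelet (0.22) and neutrophil genes (0.21). Lower lists included interferon-response (-0.18) and erythroid genes (-0.48). The part of these lists in the pattern was not tested. A STAT6-type motif, TTC, any 4 bases and GAA, which reads the same on both strands, was found before the start of 1 of the 6 members with a RefSeq promoter, Ccl17, against 6.76% of all symbols. Il4 itself was highest in well 4, at 5.63 against 5.29 to 5.47, and stayed below the receptor limit. Of the 4 Th2 genes above the limit, 2 were higher in well 4, with a median difference of -0.0073. A relation of Il4 to the list was not tested.

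Relations between cell type markers over the wells were tested for 7 genes in 21 pairs. With Pearson's r, 2 of the 21 had an unadjusted p below 0.05 and 0 after Benjamini-Hochberg adjustment, and with Spearman's rho likewise 2 and 0. The strongest pair was Cd3e and Csf1r (r = 0.86, two-sided exact permutation p = 0.0115, adjusted p = 0.242, rho = 0.93, p = 0.00675, adjusted p = 0.142, n = 7). Without wells 1 and 6, the 2 farthest from the median of Cd3e, r was 0.63. The second pair, Cd8a and Csf1r, had r = 0.80 (two-sided exact permutation p = 0.0371, adjusted p = 0.390, n = 7, rho = 0.64 with p = 0.139), and 0.10 without its 2 farthest wells. The probes for Cd8a lay below the receptor limit in every well, the highest at 5.79, so its order over wells is that of a gene not above the limit. Another probe for Csf1r was highest in well 6, at 7.28, where the probe used here was lowest, at 8.20. All samples were processed as a single batch, so no values within batches can be given.

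The largest SDs came from single wells. Of the 890 probes with an SD of 0.5 or more, 114 had over 80% of their sum of squares in 1 well, and so did 55 of the 186 with an SD of 1 or more. In 84 of the 114 the odd well was low and in 30 it was high. Well 4 was the odd one for 28 probes, well 5 for 27, wells 1 and 6 for 16 each, well 2 for 14, well 3 for 10 and well 7 for 3. Of the 40 genes with the largest SD 24 were of this kind, and 12 had a median below the receptor limit. The ranking itself was closed by Rpl23a-ps1 at an SD of 1.49, and Mtus2 followed outside it at 1.45.

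**Figure D4:**
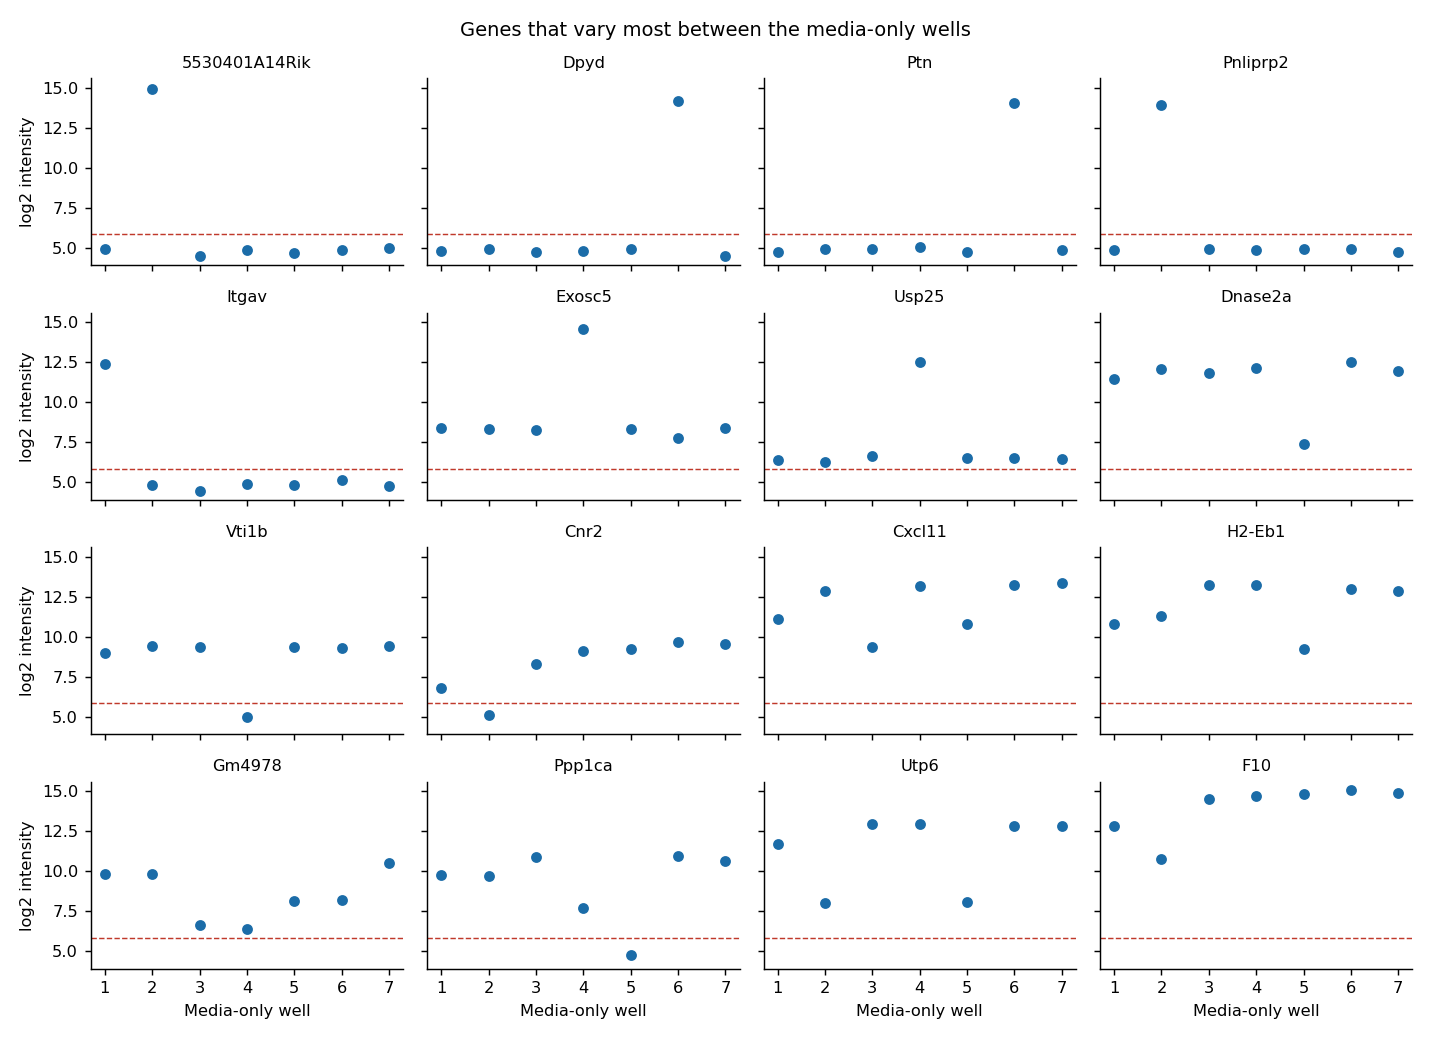
Log2 intensity (y axis) in each of the 7 media-only wells (x axis) of 16 of the 40 genes with the largest SD between wells, on the probe that is in the ranking, with the receptor limit of 5.87 as a dashed line. 5530401A14Rik, Dpyd, Ptn, Pnliprp2 and Itgav are each above the limit in 1 well only, while Cxcl11, H2-Eb1, Gm4978 and Utp6 differ among several wells.

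The most variable probe was for 5530401A14Rik, at 14.91 in well 2 and 4.50 to 4.99 in the others. The uncharacterized transcript was followed by Dpyd, the enzyme that breaks down pyrimidines, at 14.17 in well 6 and 4.52 to 4.96 elsewhere. Ptn, the growth factor pleiotrophin, read 14.07 in well 6 and 4.76 to 5.06 elsewhere, and Pnliprp2, a pancreatic lipase-related gene, read 13.95 in well 2 and 4.77 to 4.96 elsewhere. In all 4 genes a spot at the brightness of the receptor probes in 6 wells was among the bright spots of the array in the remaining one. The integrin gene Itgav read 12.39 in well 1 and 4.45 to 5.13 elsewhere, the exosome subunit gene Exosc5 14.57 in well 4 and 7.77 to 8.37 elsewhere, and the kinase inhibitor gene Pkig 15.17 in well 4 and 10.82 to 10.99 elsewhere. Low wells were those of the lysosomal nuclease gene Dnase2a, at 7.43 in well 5 and 11.47 to 12.53 elsewhere, and of the vesicle fusion gene Vti1b, at 5.00 in well 4 and 9.00 to 9.46 elsewhere.

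Further probes of the same genes did not repeat these values. The second probe of Ptn read 4.60 in well 6, that of Itgav 4.94 in well 1, that of 5530401A14Rik 5.01 in well 2, and that of Usp25, a deubiquitinase whose first probe read 12.51 in well 4, read 6.96. The second probes of Ptn, Itgav and 5530401A14Rik averaged 4.78, 5.06 and 4.76, below the limit, so their lack of a rise shows little. Over the 37 pairs in which 1 well held over 80% of the first probe's sum of squares and the second probe was above the limit, the first probe differed from the median of the other wells by a median of 2.33 and the second by 0.221, and in 3 of 37 the second moved by over 0.5 the same way. One of those genes was Hspa8. The regulatory T cell factor gene Ikzf2 read 9.92 in well 2 and 4.69 to 5.04 elsewhere, its other probe 4.82 to 5.09 in all wells, and its mean of 5.58 lay below the limit.

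Other genes varied among several wells. A ranking of 40 genes by the median absolute deviation, on which 1 well has little weight, shared 9 genes with that by SD, Cxcl11, Rps3, Ppp1ca and Gm4978 among them. Cxcl11, an interferon-induced ligand of CXCR3, read 11.12, 12.85, 9.34, 13.17, 10.81, 13.23 and 13.37 in wells 1 to 7 and 8.48, 9.66, 9.75, 11.09, 10.82, 11.53 and 10.89 on its second probe. Both probes were high in wells 4, 6 and 7, while the lowest value fell in well 3 on the first and in well 1 on the second. The cannabinoid receptor gene Cnr2 of B cells read 5.11 in well 2, 6.78 in well 1 and 8.28 to 9.71 in the others. The small ribosomal subunit gene Rps3 varied between 5.00 and 11.09 on 1 probe, between 9.24 and 12.00 on the brightest and between 5.94 and 6.35 on the third. Utp6 read 8.00 and 8.12 in wells 2 and 5 and 11.74 to 12.97 in the others, and the clotting factor gene F10 10.78 in well 2, 12.81 in well 1 and 14.50 to 15.05 in the others. The macrophage lysozyme gene Lyz2 read 6.02, 6.83, 6.81, 4.85, 4.91, 6.28 and 5.94, on either side of the limit, and the phosphatase gene Ppp1ca 4.76 in well 5 and 7.73 to 10.98 in the others.

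Over all genes, the well-to-well pattern of 1 probe said little about that of another. In the 1368 pairs above the limit the correlation over 7 wells had a median of 0.11 (quartiles -0.24 and 0.45), given as a description over pairs that share wells and array. It was 0.14 in 448 pairs with both means at 8 or more, 0.14 in 125 pairs with both SDs at 0.3 or more, and above 0.8 in 65 pairs (4.75%). Pairs above 0.8 with both SDs at 0.3 or more were 9, among them Cplx2 (r = 0.98), of which 2 of 4 probes read 10.46 and 10.65 in well 4 and 12.12 or more elsewhere, while a brighter one read 13.95 in well 4 and 13.49 to 14.16 elsewhere, and Gapdh (r = 0.91), with 10.79 and 9.40 in well 6 as the lowest values. These pairs were chosen for their correlation.

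**Figure D5:**
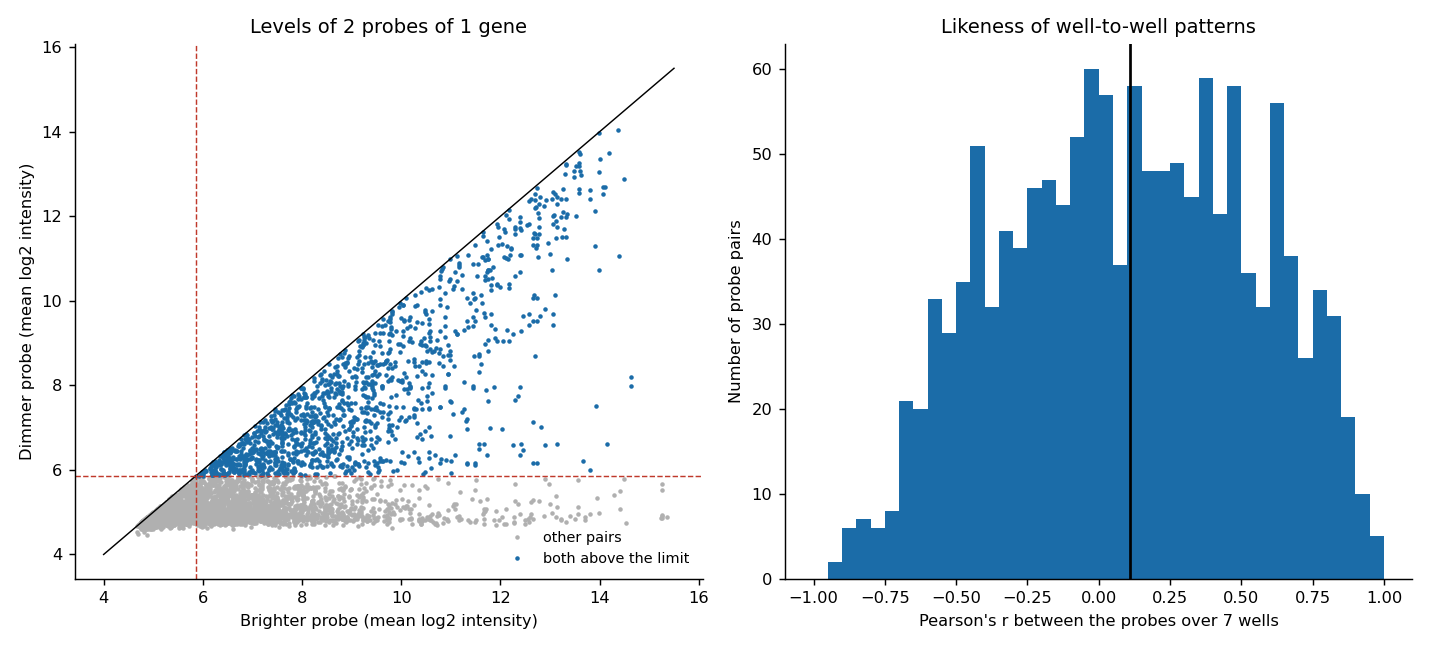
Left, mean log2 intensity of the dimmer (y axis) against the brighter probe (x axis) in 8406 pairs of probes for 1 gene, with the 1368 pairs above the receptor limit in blue, the limit as red dashed lines and equality as a black line. Right, number of the 1368 pairs (y axis) by Pearson's r between the 2 probes over the 7 wells (x axis), with the median of 0.11 as a black line.

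Probes spotted 10 to 12 times had smaller SDs between wells than single-spot probes. Of 387 such groups 118 were above the limit, their spots differed within an array by a median SD of 0.403, and the well means by a median SD of 0.114, with 0 of 118 at 0.5 or more. Single-spot probes above the limit had a median SD of 0.237, and 16.0% of them exceeded the largest SD of the repeated ones, 0.400. The median standard error that the spots alone give a well mean was 0.127, against that median SD between wells of 0.114, and in 5 of 118 the SD between wells was over 2 times that error. Of these, Pex11a, a peroxisome gene, read 5.92, 5.86, 5.93, 6.49, 6.89, 5.84 and 6.30 in wells 1 to 7, with wells 4, 5 and 7 high. Tap1, the peptide transporter of MHC class I loading and an interferon target, read 7.21, 7.36, 7.06, 6.67, 6.85, 6.59 and 6.68, with wells 1 to 3 high. The lamin gene Lmnb1 ranged between 6.16 in well 7 and 7.06 in well 3. Ccl2, at 9.91 to 10.46, was below 2 times the error.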

How the data were processed

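Total RNA of the 7 media-only wells was labelled with Cy3 and hybridized to 1-colour Agilent mouse arrays. The authors read median spot intensities with GenePix and, with limma (version not given in the sources used here), corrected the background by normexp with an offset of 8, took log2 and quantile-normalized all 48 arrays, and these deposited log2 values were used as they are. Of 43020 spots, 387 groups of 10 to 12 spots with 1 symbol and accession were averaged, which left 39430 probes, 29436 of them with a gene symbol from the platform annotation. A gene is given by its brightest probe. Arrays give no read depth, and 7 wells limit the precision.

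Wells were numbered as in the labels. The SD was taken over 7 wells, and a single-well probe has an SD of at least 0.5 and over 80% of its sum of squares in 1 well. Marker pairs were tested by exact permutation (two-sided, Benjamini-Hochberg over 21 pairs). Named genes were the leading members of each list and ranking, defining markers, the study's genes and those set apart in a well. The members and lists were chosen with earlier results of these data known. Alternatives were other limits, filters, spot averaging, normalizations, measures of spread and leaving out each well. Scripts were tested on simulated data. Python 3.11.15, numpy 2.4.6, pandas 2.3.3, R 4.3.3 and limma 3.58.1 were used. Promoters came from RefSeq (GRCm38.p6).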

Additional observations from a re-analysis of the deposited data

Results flagged for a closer look

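In 26 of 139 named genes 1 of the 7 media-only wells lay far from the others, by Dixon's criterion for a gap relative to the whole range. Chance alone flags about 5% of groups, and many of these genes were named because of such a well. Well 6 was the far well for 8 genes, well 4 for 7, well 2 for 5, wells 1, 5 and 7 for 2 each and well 3 for 0.

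Far above the others were 5530401A14Rik at 14.91 and Pnliprp2 at 13.95 in well 2, Ikzf2 at 9.92 in the same well, Dpyd at 14.17 and Ptn at 14.07 in well 6, and Itgav at 12.39 in well 1. In well 4 they were Pkig at 15.17, Exosc5 at 14.57 and Usp25 at 12.51, and in well 7 Mtch2 at 12.92. The first probe for Xist, at 5.81 in well 6, was the other high value.

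Far below the others in well 6 were H2-Ab1 at 12.09, Hspa8 at 10.73, Hba-a1 at 6.70, Cd8a at 5.42 and Fscn1, the actin-bundling gene of mature dendritic cells, at 5.13. In well 4 they were Rpl13a at 8.79 and Rpl4 at 8.62, both ribosomal protein genes, Mki67 at 6.01 and Vti1b at 5.00. The second probe for Rpl13a read 8.87 in well 4, its highest value, and the second probe for Mki67 read 6.67 there, against 6.05 to 6.78 in the other wells. Single genes were Ccr7 at 8.92 in well 1, Klf2 at 8.94 and Rps3 at 9.24 in well 2, Dnase2a at 7.43 and Il2rb at 5.81 in well 5, and Ccr6 at 9.49 in well 7. Their causes were not tested.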

How the results depend on the processing

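The number of probes above the limit depended on the limit, at 16359 with the 95th percentile of the receptor probes and 4127 with the highest receptor mean, against 9846. Restricted to means of 8 or more, 389 probes had an SD of 0.5 or more and 22 of the 40 most variable genes were shared, and 9 were shared with the median absolute deviation. Leaving out each well gave 9707 to 10040 probes above the limit, a median SD of 0.204 to 0.239, 813 to 993 probes with an SD of 0.5 or more, 32 to 38 of 40 genes shared and 26.9 to 32.4% of variance on the first component. Without the 2 farthest wells, r turned sign for Cd3e with Cd8a (-0.23), S100a8 (0.31) and Mki67 (0.0414), for Cd8a with Isg15 (-0.27), and for Mki67 with Cd79a (-0.0675) and Csf1r (0.34), none of which had passed a test. At the 95th percentile 11 of 34 list counts moved by over 1.5 times, among them 8 of 14 Th2 genes, and 2 moved at the limit of 6. Under cyclic loess 5 of 139 gene levels moved by more than their SD. The alternatives for the component, the probe pairs and the counts of list members by well were chosen after seeing the data. For the counts by well that were checked, only the larger side, members higher or members lower, was compared. It kept its side and stayed within 1.5 times under 3 normalizations and with all probes averaged. The larger side cannot vary widely, so this check is weak. No paired analysis was possible because 1 group was described and no groups were compared.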
